A study of Mus musculus with 6 samples.

Results

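The 10 genes described here encode ligands of the transforming growth factor beta (TGF-beta) and bone morphogenetic protein (BMP) family and SMAD-pathway proteins that carry or restrain their signal. They are Tgfb1, Tgfb2, Tgfb3, Inhba, Bmp2, Bmp4, Smad3, Smad6, Smad7 and Skil. Every non-control probe that the scanner files annotate with one of these names was taken, which gave 12 probes among 41174, with 2 probes each for Smad3 and Skil. Of these, 11 probes passed the filter on dim signals, so that 9 of the 10 genes were measured among 21275 genes in all.

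The cells were dermal fibroblasts in culture, which make the collagen-rich matrix of skin, from C57BL/6 mice. Cells treated with interleukin-1 (IL-1), an inflammatory cytokine, at 20 ng/ml for 1, 2 or 4 h were compared with untreated cells (0 h). Both were grown in serum-containing DMEM with antibiotics, so the untreated cells were also exposed to serum. Which form of IL-1 was given, and how many mice or cultures gave the cells, is not stated in the sources. Total RNA of treated and untreated cells was labelled in opposite dyes and hybridised together on 6 Agilent two-colour arrays, with 2 arrays of opposite dye orientation per time. It is not stated if a single untreated extract served every array. The pairs carry the same RNAs, so each time is 1 sample and the distance between its arrays is technical. All values below are log2 ratios of IL-1-treated over untreated RNA, given first for the array with the treated RNA in Cy5 and then for the array with it in Cy3.

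TGF-beta and BMP ligands are secreted proteins that assemble pairs of receptor kinases. TGF-beta and activin receptors act mainly through SMAD2 and SMAD3, and BMP receptors through SMAD1, SMAD5 and SMAD9, each joined by SMAD4. SMAD6, SMAD7 and the SKI-like protein encoded by Skil restrain the signal and are themselves known targets of it. In skin fibroblasts TGF-beta is known for raising collagen and other matrix genes in wound repair.

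On each array the median spot signal was between 124 and 138 in the Cy5 channel, where the 314 negative controls had medians between 68.4 and 74.1. In the Cy3 channel it was between 122 and 128, with negative controls between 96.3 and 104. Either array of a time lay a median of 0.062 from their mean over all genes, and this distance was 0.196 at the 95th percentile. Cxcl1 and Nfkbia, which NF-kB is known to induce after IL-1, had mean log2 ratios of 6.21 and 3.02 at 1 h in the direction that the dye labels give, and were positive on all 6 arrays. In the authors' deposited value table each column holds the ratios of the other array of its pair, for 100% of spots within 0.001. If the scanner files rather than the columns are exchanged, every ratio here changes sign. Cxcl1 and Nfkbia would then have fallen after IL-1 on all 6 arrays, against their known induction. All 12 fibroblast markers were above background in the untreated channel of all 6 arrays, and so were 7 of 7 keratinocyte, 8 of 9 macrophage and leukocyte, 2 of 6 endothelial and 1 of 5 melanocyte markers. Pecam1 and Tyrp1, which mark endothelial cells and melanocytes, were on 0 of 6. The flag for being above background is permissive, since up to 14.3% of negative controls carried it in Cy3. Log2 signals of the untreated channel reached 8.62 among keratinocyte, 11.6 (Lyz2) among macrophage and leukocyte, 7.11 among endothelial, 6.56 among melanocyte and 15.9 among fibroblast markers. Mean responses of the markers of other cell types lay between -0.20 (Krt10) and 0.17 (Cd14), and their part in the results was not tested. In bulk RNA, fewer cells of a type and less RNA per cell cannot be told apart.

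Over the 3 times, 3 of the 9 measured genes were higher after IL-1 and 3 were lower by limma's test of the mean log2 ratio (Benjamini-Hochberg adjusted p under 0.05 over all genes, n = 3 times). Smad3, Tgfb1 and Inhba rose, and Tgfb3, Smad6 and Bmp4 fell. Over all genes 10.8% were called higher and 10.9% lower by this test. With each array centred on its median in place of loess, the counts were 3 higher and 4 lower among the measured genes, and 1096 higher and 5618 lower against 2296 and 2324 over all genes. The median of the mean log2 ratio was 0.040 over the 9 genes and 0.0038 over all genes. The changes were small. At no time did any of the 9 genes change 2-fold on both arrays, a size passed upward by 0.221% of all genes at 1 h, 0.188% at 2 h and 0.141% at 4 h, and downward by 0.0094%, 0% and 0%. Only Tgfb3 at 4 h changed 1.5-fold on both arrays, downward. That size was passed downward by 0.0329% of all genes at 1 h, 0.0658% at 2 h and 0.0611% at 4 h, and upward by 0.428%, 0.447% and 0.385%. Nothing states that the times came from separate cultures, so p-values measure only the spread between these samples, and the ratio leaves out the spread of the untreated cells.

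**Figure D1:**
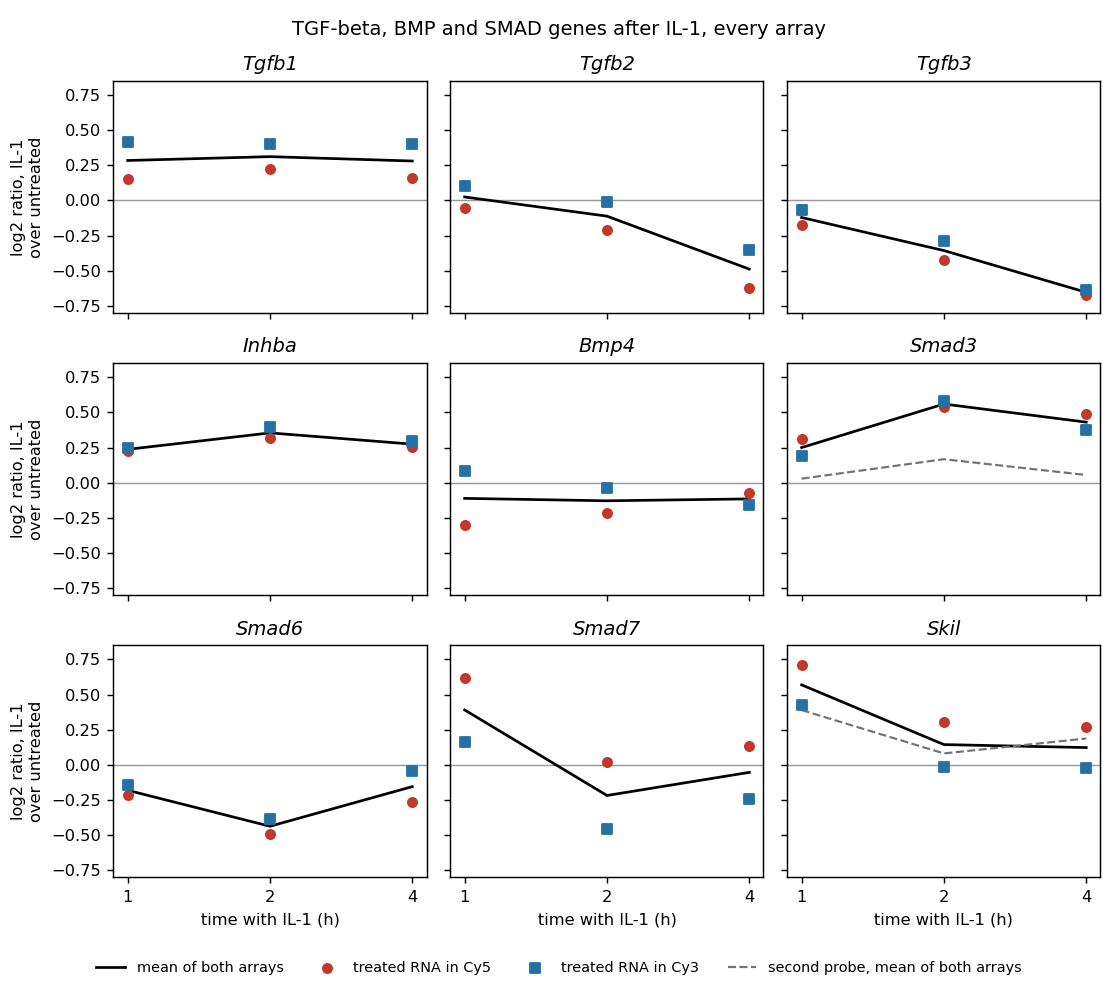
Log2 ratio of IL-1-treated over untreated RNA (vertical axis) against time with IL-1 in hours (log2-spaced horizontal axis) for the 9 measured genes; circles are arrays with the treated RNA in Cy5, squares arrays with it in Cy3, and the line is their mean. Points and solid lines show the brightest probe. A dashed grey line in the Smad3 and Skil panels is the mean of both arrays for the second probe. Tgfb3 ends at -0.65 at 4 h, and Skil is highest at 0.57 at 1 h. At 2 h Smad3 peaks at 0.56 and Smad6 is lowest at -0.44.

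The TGF-beta ligands moved in different directions. Tgfb1, the main TGF-beta of wounds and of fibrosis, had log2 ratios of 0.15 and 0.41 after 1 h, 0.22 and 0.40 after 2 h, and 0.16 and 0.40 after 4 h. All 6 arrays lay above 0, and the time means of 0.28, 0.31 and 0.28 were flat. Tgfb1 was 1.22-fold higher after IL-1 (mean log2 ratio 0.29 ± 0.022 SE, limma adjusted p = 0.00196). Its slope was -0.0019 per doubling of time (95% interval -0.069 to 0.066). At every time the array with the treated RNA in Cy3 gave the higher value, and either array lay up to 0.13 from the time mean.

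Tgfb3, a TGF-beta isoform known from palate fusion and from studies of scarring, had log2 ratios of -0.18 and -0.066 after 1 h, -0.43 and -0.29 after 2 h, and -0.67 and -0.63 after 4 h. It was below 0 on all 6 arrays and lower at each later time in both orientations. By 4 h its level was 1.57-fold lower after IL-1 than in untreated cells. The mean log2 ratio was -0.38 ± 0.093 SE (limma adjusted p = 0.0390). Tgfb3 was the only one of the 9 genes whose slope passed limma's test, at -0.27 ± 0.028 SE per doubling of time (95% interval -0.33 to -0.20, adjusted p = 0.0279), where 0.273% of all genes had a falling and 0.249% a rising slope by the test. With the scanner's own processed signals the slope was -0.27 with an adjusted p of 0.513 and the mean -0.39 with an adjusted p of 0.121, and with a normexp offset of 16 in place of 50 the adjusted p were 0.383 and 0.0722, so neither call held there. In both of these settings the slope test called 0 of all genes in either direction, so the lost slope call is not particular to Tgfb3. The slope also missed the threshold without replicate 1 (adjusted p = 0.0995) and without replicate 2 (adjusted p = 0.095), and the mean did without the 2 h sample (adjusted p = 0.147) or the 4 h sample (adjusted p = 0.0525).

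Tgfb2, the remaining TGF-beta isoform, had log2 ratios of -0.052 and 0.10 after 1 h, -0.21 and -0.011 after 2 h, and -0.62 and -0.35 after 4 h. The arrays straddled 0 at 1 h and both lay below it at 4 h, where the level was 1.40-fold lower after IL-1. The slope of -0.26 (95% interval -0.35 to -0.16) had a limma adjusted p of 0.0629, and the mean log2 ratio of -0.19 one of 0.211, so neither passed. Without the 1 h sample the mean was -0.30 with an adjusted p of 0.0466. With the 6 arrays unaveraged and dye orientation as a block, which counts technical arrays singly, the slope passed (limma adjusted p = 0.0176). Most of the difference came between 2 h and 4 h, at -0.41 and -0.34 on the arrays, against -0.16 and -0.11 between 1 h and 2 h. For Tgfb3 the corresponding steps were -0.25 and -0.35 after -0.25 and -0.22. At 4 h the Tgfb1 ratios of 0.16 and 0.40 did not overlap those of Tgfb2 or Tgfb3, which is a description of 1 sample and no test.

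RefSeq promoter entries on GRCm38.p6, covering the 250 bases before the annotated start, were at hand for 6 of the 10 genes (Tgfb1, Tgfb2, Inhba, Bmp4, Smad3 and Smad6). The 6 windows were searched on both strands for AP-1 (TGANTCA) and the NF-kB consensus. The SMAD motifs CAGAC and GGCGCC and the CRE core TGACG were searched likewise. No motif lies within another. AP-1 and NF-kB are the transcription factors best known downstream of IL-1. Among 32851 promoters of this length, 6.75% held the AP-1 motif, 7.25% the NF-kB consensus, 42.2% CAGAC, 9.59% GGCGCC and 17.8% TGACG. The promoters of Tgfb1 (chr7:25686752-25687001, plus strand) and Tgfb2 (chr1:186705990-186706239, minus strand) are shown because these ligands had opposite signs at 4 h. Capitals mark the NF-kB consensus in Tgfb1 and CAGAC in Tgfb2.
Tgfb1: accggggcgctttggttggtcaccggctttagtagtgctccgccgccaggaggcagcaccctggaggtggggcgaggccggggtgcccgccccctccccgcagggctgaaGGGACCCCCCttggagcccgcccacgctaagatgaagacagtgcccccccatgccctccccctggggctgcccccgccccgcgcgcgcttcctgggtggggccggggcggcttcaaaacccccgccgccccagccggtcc
Tgfb2: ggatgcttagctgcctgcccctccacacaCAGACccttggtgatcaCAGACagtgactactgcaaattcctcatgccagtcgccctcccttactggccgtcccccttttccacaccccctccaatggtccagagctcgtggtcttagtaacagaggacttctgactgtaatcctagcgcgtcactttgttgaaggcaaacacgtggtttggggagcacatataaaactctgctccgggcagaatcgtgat
The Tgfb1 window held 1 NF-kB consensus match, at -140 to -131 relative to the start, which reads as a match on either strand. The Tgfb2 window held 2 CAGAC matches, beginning at -221 and -204, and 1 TGACG match on the opposite strand at -72 to -68. The other 4 windows held none of the 5 motifs, and a match is a run of letters, not a shown binding site. The GC content of the Tgfb1 window was 75.2% and that of the Tgfb2 window 53.6%, against a median of 52.4% over all entries.

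Inhba encodes the subunit of activin A, a ligand that signals through SMAD2 and SMAD3. Its log2 ratios were 0.22 and 0.25 after 1 h, 0.31 and 0.39 after 2 h, and 0.25 and 0.29 after 4 h. All 6 arrays were above 0, and the arrays of a time lay within 0.039 of their mean. Raw signals were 7761 to 24578 in the treated channel and 8065 to 20053 in the untreated channel. Inhba was 1.22-fold higher after IL-1 (mean 0.29 ± 0.029 SE, limma adjusted p = 0.00384), with time means of 0.24, 0.35 and 0.27 and a slope of 0.019 (95% interval -0.067 to 0.10). With median centring the time means were 0.063, 0.16 and 0.11, still above 0 and past the test.

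Of the BMP ligands, Bmp4 is known from hair follicle and bone development. Its log2 ratios were -0.30 and 0.081 after 1 h, -0.22 and -0.039 after 2 h, and -0.075 and -0.16 after 4 h. The arrays disagreed in sign at 1 h and were both below 0 at 2 h and 4 h. The mean log2 ratio of -0.12 ± 0.021 SE, a level 1.09-fold lower after IL-1, passed limma's test (adjusted p = 0.0154). Its raw signals, 119 to 158 in the treated and 133 to 167 in the untreated channel, were dim, and without replicate 1 the mean was -0.038 with an adjusted p of 0.575 (0.12 without the 2 h sample). Bmp2, another BMP ligand, was not well above background in either channel on any of the 6 arrays, with raw signals of 75.1 to 104 in the treated and 74.1 to 103 in the untreated channel. No fold is given for it.

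Among the SMAD genes, Smad3 rose and Smad6 fell. Smad3 encodes the receptor-activated transcription factor of the TGF-beta and activin branch. Its brighter probe had log2 ratios of 0.31 and 0.19 after 1 h, 0.54 and 0.58 after 2 h, and 0.49 and 0.37 after 4 h. All 6 arrays were above 0, and both arrays at 2 h and at 4 h lay above both at 1 h. The time means of 0.25, 0.56 and 0.43 gave a mean of 0.41 ± 0.057 SE, or 1.33-fold higher after IL-1 (limma adjusted p = 0.00770). With median centring in place of loess the mean was 0.33, smaller in size than that of Tgfb3 at -0.54. The slope of 0.090 (95% interval -0.047 to 0.23) did not pass (adjusted p = 0.653). With the scanner's processed signals the mean was 0.52 with an adjusted p of 0.0524.

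The dimmer Smad3 probe gave smaller values. Its log2 ratios were -0.13 and 0.19 after 1 h, 0.016 and 0.32 after 2 h, and 0.091 and 0.018 after 4 h. The mean of 0.083 did not pass (limma adjusted p = 0.125 over all probes). Its raw signals of 97.6 to 126 in the treated and 93.2 to 122 in the untreated channel were near those of the negative controls, so the size of the Smad3 response rests on 1 probe.

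Smad6 encodes an inhibitory SMAD that acts mainly on the BMP branch. Its log2 ratios were -0.22 and -0.15 after 1 h, -0.49 and -0.38 after 2 h, and -0.26 and -0.046 after 4 h. All 6 arrays were below 0, and both arrays at 2 h lay below every array at 1 h and 4 h. The level at 2 h was 1.35-fold lower after IL-1 than in untreated cells, and the mean of -0.26 ± 0.057 SE passed limma's test (adjusted p = 0.0282). The adjusted p was 0.11 with the scanner's processed signals, 0.0611 where the offset was 16, 0.0616 without replicate 1 and 0.0618 without the 2 h sample. Smad6 was the only one of the 9 genes at least 0.2 lower at 2 h than at both 1 h and 4 h in both orientations, a rule added with the data seen that 0.0705% of all genes met. Between 1 h and 2 h Smad6 stepped by -0.28 and -0.24, and between 2 h and 4 h by 0.23 and 0.34. Smad3 stepped the opposite way in the same intervals, by 0.23 and 0.39 and then by -0.053 and -0.21.

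Smad3 and Smad6 lie near each other. Their brighter probes are 307 kb apart on chromosome 9 in the files' coordinates, whose genome build is not given in the sources used. On GRCm38.p6 the promoters of Smad3 (chr9:63757995-63758244) and Smad6 (chr9:64022060-64022309) are both on the minus strand. They are shown because these neighbours, by the brighter Smad3 probe, had opposite signs on all 6 arrays.
Smad3: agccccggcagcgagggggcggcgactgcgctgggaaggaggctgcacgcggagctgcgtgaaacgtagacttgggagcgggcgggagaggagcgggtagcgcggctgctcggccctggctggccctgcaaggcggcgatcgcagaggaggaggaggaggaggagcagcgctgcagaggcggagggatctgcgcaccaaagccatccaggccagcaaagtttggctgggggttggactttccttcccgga
Smad6: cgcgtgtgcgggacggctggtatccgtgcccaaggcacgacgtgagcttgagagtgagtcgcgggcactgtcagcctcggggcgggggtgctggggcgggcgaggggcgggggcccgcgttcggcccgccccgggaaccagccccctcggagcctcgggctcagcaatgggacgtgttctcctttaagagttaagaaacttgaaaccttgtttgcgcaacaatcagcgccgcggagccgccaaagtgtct
There are no capitals because neither window held a match to the 5 motifs, which says only that those letters are not in it. The GC contents were 69.2% for Smad3 and 66.8% for Smad6.

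Smad7, the inhibitory SMAD that blocks TGF-beta receptors, differed most of the 9 genes between 1 h and 2 h. Its log2 ratios were 0.62 and 0.16 after 1 h, 0.018 and -0.45 after 2 h, and 0.14 and -0.24 after 4 h. Both arrays were above 0 at 1 h, and the arrays disagreed in sign at 2 h and 4 h. Its arrays lay 0.226, 0.236 and 0.189 from the time means, distances near or above the 95th percentile of all genes, and the array with the treated RNA in Cy5 was the higher one at each time. Within each orientation the step was alike. Smad7 was lower at 2 h than at 1 h by -0.60 and -0.62, and it was the only one of the 9 genes past 1.5-fold in both orientations, where 0.0893% of all genes were lower and 0.0235% higher by that rule. This interval was added with the data seen and has no test. The mean over time of 0.040 (95% interval -0.23 to 0.31, limma adjusted p = 0.839) and the slope of -0.22 (95% interval -0.45 to 0.00073, adjusted p = 0.473) did not pass.

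Skil encodes SnoN, a nuclear repressor that binds SMADs. Its brighter probe, named Skil by the files through a cDNA clone, had log2 ratios of 0.71 and 0.42 after 1 h, 0.30 and -0.013 after 2 h, and 0.27 and -0.022 after 4 h. Both arrays at 1 h lay above both at 2 h and at 4 h, and 1 array of each later time was at about 0. The level at 1 h was 1.48-fold higher after IL-1, with no test at a single time. The step between 1 h and 2 h was -0.41 and -0.44, and that between 2 h and 4 h was -0.034 and -0.0084. The mean of 0.28 ± 0.088 SE did not pass limma's test (adjusted p = 0.0777, or 0.0222 with the block), nor did the slope of -0.22 (adjusted p = 0.205). The mean was 0.13 (adjusted p = 0.037) without the 1 h sample and 0.43 (adjusted p = 0.0111) without replicate 2.

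The other Skil probe, matched to a RefSeq transcript, also had its highest values at 1 h. Its log2 ratios were 0.48 and 0.30 after 1 h, 0.043 and 0.12 after 2 h, and 0.12 and 0.25 after 4 h. All 6 were above 0, and the mean of 0.22 ± 0.056 SE passed limma's test over all probes (adjusted p = 0.0364). By probe, 4 of the 11 were thus called higher and 3 lower, where 10.5% of all probes were called higher and 11.4% lower.

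**Figure D2:**
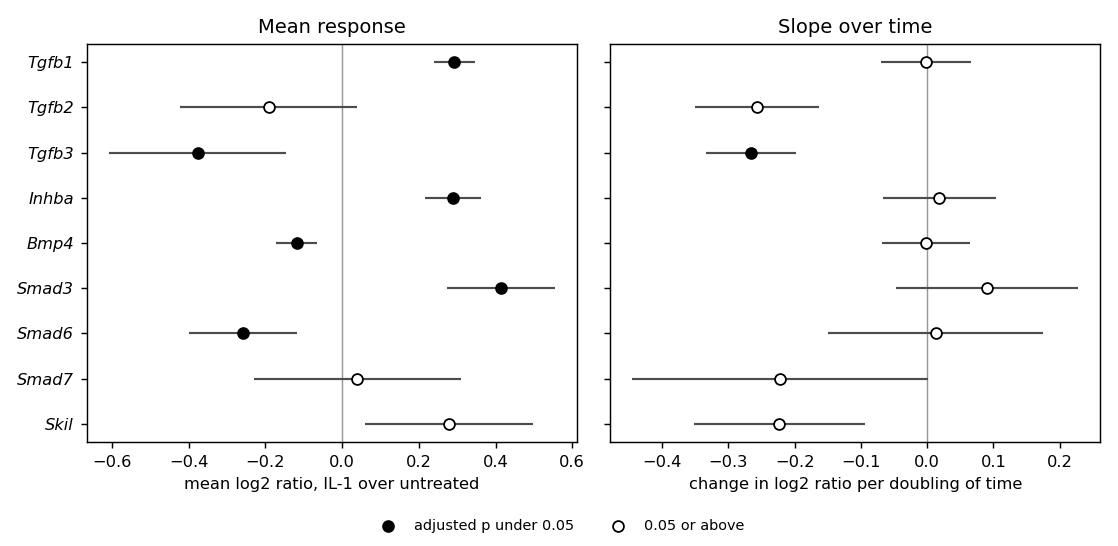
Mean log2 ratio over 1, 2 and 4 h (left) and change in log2 ratio per doubling of time (right) for the 9 measured genes, with 95% intervals from limma (n = 3 times); filled circles have an adjusted p under 0.05 over all genes. Smad3 lies highest in the mean at 0.41 and Tgfb3 lowest at -0.38, and Tgfb3 alone has a filled circle in the slope, at -0.27.

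The slope test called no rising gene among the 9, and 3 had an unadjusted p under 0.05 for the slope by limma, all of them falling (Tgfb2, Tgfb3 and Skil), where 4.72% of all genes had such a falling and 5.86% such a rising slope. Skil stands here for its brighter probe. Its other probe had a slope of -0.10 (limma adjusted p = 0.589 over all probes). With median centring the slopes of Tgfb2, Smad7 and Skil also passed (limma adjusted p = 7.58e-05, 0.00136 and 0.00146). Calls also grew over all genes there, to 174 falling and 235 rising slopes against 58 and 53 with loess. Tgfb2 and Tgfb3 were lower at each later time, while Smad7 and Skil were highest at 1 h and stepped down by 2 h. Between 4 h and 1 h, Tgfb3 differed by -0.50 and -0.57 and Tgfb2 by -0.57 and -0.45 in the 2 orientations. Neither reached 1.5-fold in both, and by that rule 0.207% of all genes were lower and 0.0893% higher.

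**Figure D3:**
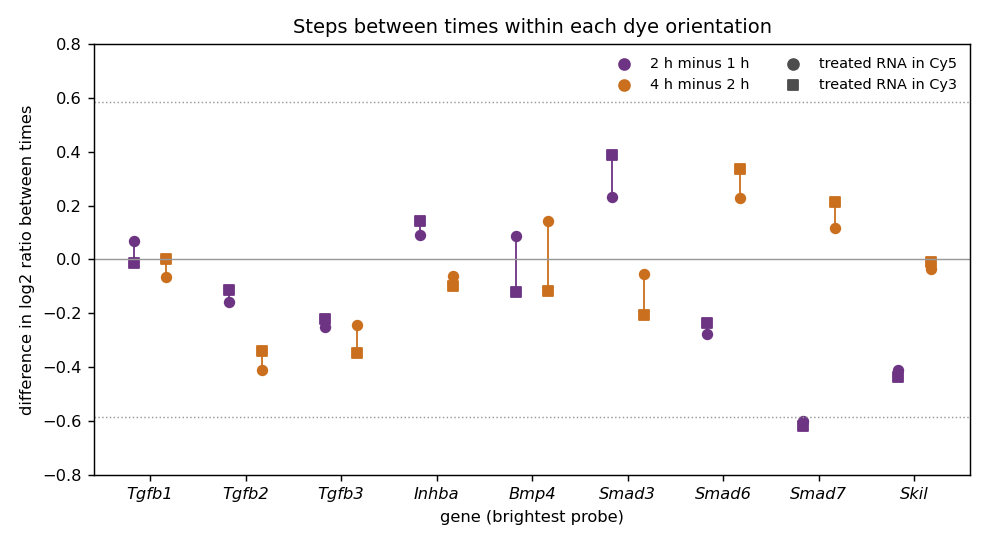
Difference in log2 ratio between neighbouring times (vertical axis; 2 h minus 1 h in purple, 4 h minus 2 h in orange) within each dye orientation, for the 9 measured genes; circles have the treated RNA in Cy5, squares in Cy3, and dotted lines mark 1.5-fold. Smad7 lies past the lower line between 1 h and 2 h at -0.60 and -0.62, and Tgfb2 has its larger step between 2 h and 4 h.

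Other genes of the pathway were read from 8 lists of 130 genes, of which 122 were measured. In the mean response 26 rose and 17 fell by limma's test, beside 10.8% higher and 10.9% lower over all genes, and the median was 0.012. With median centring these counts were 12 and 38, so the balance of directions depends on the scaling. No list gene passed the slope test, and by limma 9 rising and 15 falling slopes had an unadjusted p under 0.05, or 7.38% and 12.3% of the list genes, against 5.86% and 4.72% of all genes. Of the 43 list genes called in the mean response, 11 had arrays of opposite sign at 1 or more times. So did 1218 of the 4620 called over all genes. Of the genes named below, Fbn1 and Smad2 did at every time. Acvr1, Acvrl1, Bmpr1a, Gdf6, Smad4, Ep300, Timp1 and Plod2 did at some times. The lists were chosen with earlier results of these data known.

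Of 21 other ligands of the family, 3 fell by limma's test, namely Inhbb (mean -0.18, adjusted p = 0.0211), Gdf1 (-0.13, adjusted p = 0.0172) and Gdf6 (-0.11, adjusted p = 0.0215). Inhbb encodes the subunit of activin B, so the activin subunits Inhba and Inhbb moved in opposite directions. None of these ligands rose by the test, and 1 was higher at an unadjusted p under 0.05. The median of the list was -0.0023. Most of these probes were dim. Apart from Inhbb (10.4), Gdf15 (7.73) and Gdf1 (7.24), mean log2 signals lay between 6.07 (Gdf9) and 6.98 (Gdf5). Gdf6 had 6.30, and Bmp2, which was not well above background, had 5.96. Ratios near 0 at such signals do not show that an expressed ligand failed to respond.

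Among 13 proteins that hold TGF-beta latent or release it, 7 rose and 1 fell, with a median of 0.11 (-0.011 with median centring). Bmp1, a protease that matures procollagen and frees latent TGF-beta, had a mean of 0.29 (limma adjusted p = 0.00368). Ltbp2, a latent TGF-beta binding protein family member, had 0.28 (limma adjusted p = 0.00389), and the matrix fibril gene Fbn1 0.20 (limma adjusted p = 0.0141), although its 2 arrays had opposite signs at every time. Itgav, the integrin subunit that activates latent TGF-beta, had 0.18 (limma adjusted p = 0.0115). Thbs1, thrombospondin 1, which is known to activate latent TGF-beta, was the exception, with time means of -0.39, -0.45 and -0.36 (mean -0.40, limma adjusted p = 0.00167).

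Of 13 extracellular antagonists, 3 rose by limma's test, with a list median of 0.036. Among them Grem1, a secreted BMP antagonist, had time means of 0.23, 0.36 and 0.34 (mean 0.31, adjusted p = 0.00387). Fstl1, a follistatin-like secreted protein, had a mean of 0.21 (adjusted p = 0.00605). None fell by the test, and 2 were lower at an unadjusted p under 0.05.

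Of 15 receptors and co-receptors, 2 rose and 4 fell by limma's test, with a median of -0.0092. The BMP co-receptor Rgma had time means of -0.49, -0.41 and -0.19 (mean -0.36, adjusted p = 0.0105). The activin receptor Acvr2a and the BMP receptor Bmpr1a each had a mean of -0.18 (adjusted p = 0.0149 and 0.0139), and Acvr1 had -0.12. Acvr1b, the activin type I receptor, had 0.18 (adjusted p = 0.00514) and Acvrl1 0.12 (adjusted p = 0.0151). The arrays disagreed in sign at 1 h for Bmpr1a (0.089 and -0.30) and Acvrl1 (-0.079 and 0.32). Those of Acvr1 did at 4 h (0.0020 and -0.19). The main TGF-beta receptors Tgfbr1 and Tgfbr2 did not pass, at -0.044 (adjusted p = 0.285) and 0.0064 (adjusted p = 0.893).

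Of 14 SMAD transducers and nuclear partners, 4 rose and 3 fell by limma's test, with a median of -0.034. Tgif1, a corepressor of SMADs, had time means of 0.44, 0.18 and 0.18 (mean 0.27, adjusted p = 0.0232). Zeb2 had a mean of 0.17, and the shared partner Smad4 had 0.15 and the SMAD2 partner Foxh1 0.10, of which Smad4 and Foxh1 were at -0.0006 and -0.014 with median centring. Smad2 had -0.11 (adjusted p = 0.0309), but its 2 arrays had opposite signs at every time. The coactivator Ep300 and the endosomal Zfyve16 each had -0.13.

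Of 11 intracellular inhibitors other than Smad6, Smad7 and Skil, 5 rose and 2 fell by limma's test, with a median of 0.069 (-0.034 with median centring). Bambi, a decoy receptor without a kinase domain, had time means of -0.41, -0.52 and -0.29 (mean -0.41, adjusted p = 0.00448). The ubiquitin ligase Wwp1 had -0.23 (adjusted p = 0.00515), while Smurf1, a ubiquitin ligase for SMADs and receptors, had 0.28 (adjusted p = 0.00224). Pmepa1 had 0.11, and Fkbp1a and Ppm1a had 0.12 and 0.11, or -0.0084 and -0.034 with median centring.

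Among 22 genes known to respond to TGF-beta, 4 rose and 2 fell by limma's test, with a median of 0.11 (-0.078 with median centring). Fn1, fibronectin, had time means of 0.30, 0.38 and 0.38 (mean 0.35, adjusted p = 0.00207). Tsc22d1 had a mean of 0.22 and Timp1, saturated on 3 arrays in each channel, 0.20. The Timp1 arrays had opposite signs at 1 h (-0.15 and 0.44) and at 4 h (-0.13 and 0.48). With median centring the Timp1 mean was 0.0032. Ccn2, Acta2, Col1a1, Col1a2 and Tagln were also saturated on 3 arrays in each channel, and none passed the test. Their arrays had opposite signs at 1 h, for example -0.88 and 1.06 for Acta2. Saturated signals give no reliable ratio, so the responses of these genes are not known and the list median partly rests on them. The fibrillar collagen gene Col3a1 had -0.25 (adjusted p = 0.00392) and Plod2, a collagen lysyl hydroxylase, -0.15 (adjusted p = 0.0169). The Plod2 arrays disagreed in sign at 4 h (-0.24 and 0.060). The transcription factor genes Junb and Klf10 were the only members of the list past 2-fold on both arrays of a time. Junb had time means of 1.33, 0.41 and 0.22, and Klf10 of 1.39, -0.20 and -0.22, and neither passed the mean test (adjusted p = 0.0747 and 0.528).

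Of 13 genes known to respond to BMP, 1 rose and 2 fell by limma's test, with a median of -0.073. Id4, which encodes a blocker of basic helix-loop-helix factors, had time means of -1.09, -0.94 and -0.25 (mean -0.76, adjusted p = 0.0215) and was 2-fold lower at 1 h on both arrays. Runx2, a bone-forming transcription factor, had a mean of -0.24 (adjusted p = 0.0189). Id3, a relative of Id4, had 0.37, 0.074 and 0.35 (mean 0.26, adjusted p = 0.0305), so members of the Id family moved in both directions.

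**Figure D4:**
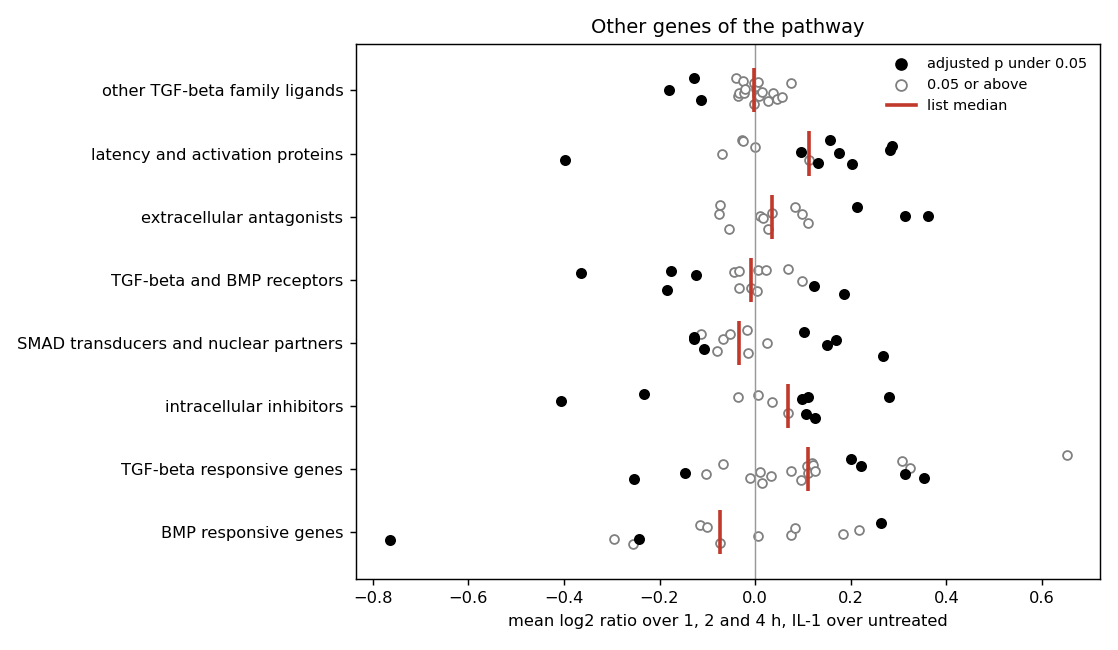
Mean log2 ratio over 1, 2 and 4 h of IL-1-treated over untreated RNA (horizontal axis) for the measured genes of 8 pathway lists; each circle is a gene, filled where limma's adjusted p is under 0.05, and the red bar is the list median. Most genes lie near 0, with Id4 at -0.76, Bambi at -0.41 and Thbs1 at -0.40 among the filled circles on the left.

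With loess, Smad3 had the largest mean of the genes that passed among the 9, and the genes closest to it over the 6 ratios were ranked by Euclidean distance. Marchf3 was nearest at 0.15, followed by Slc16a9 (0.22), Susd6 (0.23), Tapbp (0.23) and Gypc (0.23). Their mean log2 ratios were 0.38, 0.37, 0.42, 0.48 and 0.45. Every ratio is against untreated RNA, and the likeness is a description over 6 arrays of 3 samples.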

How the data were processed

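Expression was measured on 6 two-colour arrays, 2 dye-exchanged arrays for each of 3 times, with untreated RNA in the other channel of every array. Per the file headers the deposited intensity columns give the average spot brightness and the local background as read by Agilent Feature Extraction 7.5.1. The processed intensities were background-subtracted and dye-normalized by that software, per the file headers. The authors' deposited value table holds log2 ratios, with column medians of -0.026 and 0.0261 (1 h), -0.0309 and 0.0311 (2 h), and -0.0325 and 0.0283 (4 h). They equal the software's processed ratios of treated over untreated RNA with the 2 columns of each pair exchanged, so their scale is known and no further centring was applied. Which source is exchanged is not stated. The direction used is that of the dye labels, in which Cxcl1 and Nfkbia rise.

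Arrays held 43790 spots, 2256 of them controls. In R 4.3.3, limma 3.58.1 corrected the mean signals (normexp, offset 50) and normalized each array by loess in which controls had weight 0. Controls and outlier spots were left out and spots of a probe averaged. Probes had to be well above background on all arrays of 1 or more of the 4 conditions (30634 of 41174 were), and 57 with a missing value were dropped. Genes were named through RefSeq accessions and the GRCm38.p6 gene table for 18710 kept probes and by the files otherwise. The brightest kept probe stood for a gene.

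The arrays of a time were averaged with the sign turned. Two-sided limma tests (lmFit, eBayes) were made of the mean response, with 2 residual degrees of freedom, and of the slope on log2 time, with 1, with Benjamini-Hochberg adjusted p under 0.05 over all genes. Single times have 1 sample and were described by size in both orientations. The scripts were tested on simulated data. Deviations of same-numbered arrays correlated at 0.783 to 0.856 across genes. Between opposite orientations of a time the correlation was only 0.308 to 0.362. Per the labels the numbers mark dye orientation, which was used as a block in an alternative. Alternatives were the processed signals, an offset of 16, no background correction, median centring, other probe filters and summaries, the value table, a trended prior, and leaving out an orientation or a time.

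The members and the lists were chosen with earlier results of these data known. All 10 genes are named; from each list, up to 4 genes per direction with the largest mean among those past the test, any list gene past 2-fold at a time, and the 5 genes nearest to Smad3. Tgfbr1, Tgfbr2 Fst and the genes of the 2 h pattern were named after their values were seen. Some list genes that the rule names are not reported here. Not measured of the lists were Amhr2, Cer1, Chrdl2, Gdf10, Gdf2, Gdf3, Mstn and Lrrc32. Promoter sequences are RefSeq's on GRCm38.p6.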

Additional observations from a re-analysis of the deposited data

Results flagged for a closer look

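The log2 ratio of Tgfb3 changed by -0.27 per doubling of time with IL-1 by limma's test across the 3 times (adjusted p = 0.0279), a difference between times. Each time is 1 sample. The Tgfb3 slope did not pass with the processed signals, an offset of 16, the value table or a trended prior. Nor did it pass without replicate 1 or replicate 2. Klf10 differed between times by -1.61 when its 1 h value is taken from that at 4 h (time means 1.39, -0.20 and -0.22), with both arrays above 0 at 1 h and both below at 4 h; this difference was not tested.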

How the results depend on the processing

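Depth on arrays is limited by signal over background, and 6 arrays of 3 samples limit the precision. Of the 9 measured genes, 3 were called lower in the mean response; 1 was with the scanner's processed signals, an offset of 16 or the deposited value table, in each case leaving only Bmp4, and 0 to 4 when a replicate or time was left out (1 without replicate 1, 0 without the 2 h sample). The 3 called higher ranged from 2 to 4 over all alternatives. The falling slopes, 1 in number, were 0 with the processed signals, an offset of 16, the value table or a trended prior and 0 without replicate 1 or replicate 2, although 2 or more of the 9 genes had an unadjusted p under 0.05. Falling slopes among the 9 were 3 with no background correction, 4 with median centring and 2 (Tgfb2 and Tgfb3) with dye orientation as a replicate block. Over all genes 58 slopes fell, and 0 did with the processed signals, an offset of 16 or the value table. That count was 3 with a trended prior, 15 without replicate 1 and 17 without replicate 2. It was 247 with no background correction, 174 with median centring and 174 with the block. With the block the mean of Skil also passed (adjusted p = 0.0222), and no other call of the 9 genes changed. Genes 1.5-fold higher, 0 in number, were 1 (Smad3) with the processed signals, an offset of 16 or the value table and 0 to 2 when an orientation was left out; those lower, 1 in number, were 0 with median centring and 1 to 2 when an orientation was left out. List genes called higher, 26 in number, were 11 with the processed signals or the value table, 12 with median centring and 9 to 33 when a sample or orientation was left out. List genes called lower, 17 in number, were 7, 7, 38 and 4 to 27 in the same order. Without the 2 h sample they were 9 and 4, and without replicate 1 they were 33 and 27. Among the 11 probes, 2 were higher and 1 lower with the processed signals, against 4 and 3. Over all genes, counts in the mean response ranged from 472 to 4572 higher and from 352 to 5618 lower, and genes 1.5-fold changed at any time were 152 higher and 25 lower, against 281 and 125 with the processed signals and 55 and 3 with median centring. No called value of the 9 genes changed sign. The cause of these changes was not tested.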

Other observations

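A dip at 2 h was shared by Smad6 and by several BMP-responsive genes. Id1, Id2 and Id3, which encode inhibitors of basic helix-loop-helix factors and are known BMP targets, and Hes1, a repressor of the same protein class, were lower at 2 h than at both 1 h and 4 h by at least 0.2 in both dye orientations. Id1 had time means of 0.43, -0.15 and 0.27, Id2 of -0.16, -0.52 and -0.085, Id3 of 0.37, 0.074 and 0.35, and Hes1 of -0.068, -0.55 and -0.27. Smad6 had -0.18, -0.44 and -0.15.

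In all 15 of 21275 genes met this rule (0.0705%), and 4 of the 13 measured BMP-responsive genes and 1 of the 9 ligand and SMAD genes were among them. The others were Adamts1, Arhgap24, Dusp1, Gadd45g, Kank1, Mafk, Nr4a1, Ppp1r10, Rgcc and Sgk1. The rule was written after the pattern had been seen in these samples, so it carries no test, and each time is 1 sample. With the scanner's processed signals 204 genes met it, Smad6 and the same 4 BMP-responsive genes included. With median centring 22 did, among them Smad6, Hes1, Id1 and Id2, and with no background correction 9 did, among them Smad6, Id1, Id2 and Id3.

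Fst, which encodes follistatin, an antagonist of activin, had time means of 0.11, 0.072 and -0.40, and its mean did not pass limma's test (mean -0.073, adjusted p = 0.663).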
